A study of Paralichthys olivaceus with 24 samples.

Results

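The probes described here differed from water by at least 1 log2 in only 1 of 4 settings, namely 24 h after poly(I:C) at 25 °C. They were measured in spleens of a flatfish, the Japanese flounder Paralichthys olivaceus. Differences below 0.5 log2 could remain in the other settings, in some members without overlap between the arrays. Of 13026 tested probes for flounder contigs, 77 were chosen: 20 were higher and 57 were lower with poly(I:C) than with water. A contig is a transcript assembled from sequenced fragments, here with a code starting JFC. The choice used the deposited log2 values. The mean of poly(I:C) minus the mean of water had to be at least 1 in size at 25 °C 24 h, and below 0.5 in size at 25 °C 3 h, at 15 °C 24 h, and at 15 °C 3 h. These 4 differences are therefore given as a description, with no test. To be tested, a probe needed the scanner software's mark for well above background on the 3 arrays of at least 1 group.

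The 8 groups had 3 single-colour arrays each: poly(I:C) and DEPC-treated water at 25 °C 24 h, at 25 °C 3 h, at 15 °C 24 h, and at 15 °C 3 h. All arrays held spleen RNA of fish treated and then kept at the stated temperature. No age, strain or dose is given in the labels. Nor do they tie each array to a fish of its own, and p-values therefore cover no more than the scatter among these RNA samples, part of which could be technical. On a single array 78.4% to 95.0% of all probes were well above background. Values are log2 signals relative to the 75th percentile of the array unless another scale is named. A signal also depends on the probe, so a bright spot does not mean an abundant transcript. In whole-spleen RNA, fewer cells of a type and less RNA per cell cannot be told apart. The arrays lay on 3 slides, each scanned as a whole, and of the 25 °C 24 h arrays all but replicate 1 of poly(I:C) lay on the same slide. At 25 °C 3 h and at 15 °C 24 h the poly(I:C) arrays and the water arrays lay on different slides. In these settings treatment and slide cannot be told apart. At 15 °C 3 h all but replicate 3 of water lay on the same slide.

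Poly(I:C) is a synthetic double-stranded RNA that stands in for the genome or replication intermediates of RNA viruses. Cells sense it through Toll-like receptors in endosomes and RIG-I-like receptors in the cytoplasm, and answer with interferons and interferon-stimulated genes. In fish the spleen is a main lymphoid organ, which also filters blood and holds red cells. Fish are ectotherms, so the temperature of the water is also that of their immune cells. No contig code could be paired with a gene: 0 of 14478 target names matched the gene table used here. The labelled tissue was therefore not checked against marker genes, gene lists were not applied, and members are given by contig code. Contigs to be named were picked by a rule stated with the processing, and any other is said to have been chosen after its values were seen.

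Contig probes that differed by at least 1 log2 at 25 °C 24 h numbered 799, of which 242 were higher and 557 lower with poly(I:C). The members made up 8.26% of the 242 and 10.2% of the 557, since each of the others reached 0.5 in size in at least 1 other setting. Seen the other way, 4447 contig probes stayed below 0.5 in the other 3 settings, and 1.73% of these passed 1 at 25 °C 24 h. The smallest difference among the higher members was 1.01, and the nearest probe outside was at 0.986. The lower member nearest the limit was at -1.0002, and the nearest probe outside was at -0.998. In the other 3 settings the largest difference inside was 0.495 for higher and 0.497 for lower members, and the nearest probes outside reached 0.519 and 0.530. No gap separated the 77 from the probes just outside the limits, as the plot of the difference against the level shows. The split between directions depended on scaling: the same limits gave 35 higher and 41 lower probes with median scaling, and 46 higher and 25 lower with quantile normalisation. The median difference at 25 °C 24 h over all tested contig probes was -0.16 in the deposited values, -0.04 with median scaling and -0.02 with quantile normalisation.

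**Figure D1:**
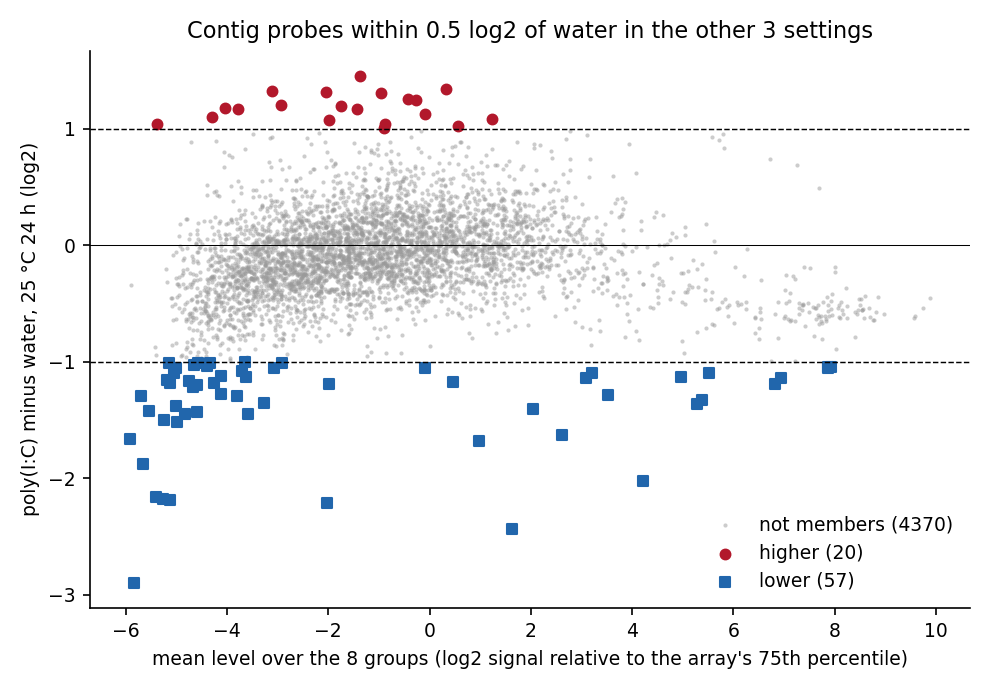
Difference between poly(I:C) and water at 25 °C 24 h (vertical axis, log2) against the mean level over the 8 groups (horizontal axis, log2 signal relative to the 75th percentile of the array) for the 4447 contig probes below 0.5 in the other 3 settings. The 20 higher members (red circles) lie mostly at middle levels, the 57 lower members (blue squares) mostly at both ends, and the other probes (grey) below 0 at both ends.

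The 20 higher members exceeded water by 1.01 to 1.45 log2, with a median of 1.18, against a median of -0.16 over all tested contig probes. The 3 poly(I:C) arrays lay above the 3 water arrays for 17 of the 20, beside 12.6% of all tested probes, a share that follows from the choice. With normexp background correction 1 of the 20 kept a difference of 1 and the median was 0.71. The 4 dim ones (below the 25th percentile of levels) then had a median of -0.0006, and 2 of these were below 0. The correction adds an offset of 50 to every signal, which by itself shrinks log2 differences, most of all those of dim probes. The members above the 75th percentile of levels also fell below 1, to 0.89, 0.69 and 0.90. The correction also started from other signal values, and the part of the offset in these falls was not tested. The median level was -1.41, 13 of the 20 lay between the 25th percentile (-3.18) and the 75th percentile (0.06) of the levels of tested contig probes, and 14 were well above background on all 24 arrays. Without 1 water array at 25 °C 24 h the limits kept 36 higher probes (replicate 2) or 35 (replicate 3), of which 16 and 19 were among the 20.

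For most higher members it was the poly(I:C) group at 25 °C 24 h that lay away from the rest. That group was 1.004 above the mean of the 6 groups of the other 3 settings at the median, and the water group was -0.11 from it. Poly(I:C) was the further of both for 15 of the 20 and water for 5, beside 5519 and 7507 of the 13026 tested contig probes. All 3 poly(I:C) arrays at 25 °C 24 h lay above the other 21 arrays for 11 members, beside 1.81% of all tested probes. All 3 water arrays lay below the other 21 for 1 member, beside 0.949%. Both counts use the arrays that chose the members, so the choice favoured them over the shares of all probes. At 25 °C the 24 h level stood above the 3 h level by a median of 1.49 with poly(I:C) and of 0.26 with water.

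Contig JFC03636 (probe CUST_9403_PI426483990) had the largest difference among higher members well above background at 25 °C 24 h. It read -0.20, -0.08 and -0.14 with poly(I:C) at 25 °C 24 h, against -1.76, -1.48 and -1.54 with water, a 2.74-fold difference on the log2 mean scale (1.45 log2, and 0.90 with normexp). At 25 °C 3 h it read -1.84, -2.41 and -2.55 with poly(I:C), against -2.29, -1.95 and -1.99 with water. At 15 °C 24 h it read -1.19, -1.65 and -1.34 with poly(I:C), against -1.34, -0.99 and -1.21 with water. At 15 °C 3 h the values were -1.37, -1.43 and -1.45 with poly(I:C), against -1.12, -0.95 and -0.93 with water. The 3 poly(I:C) arrays at 25 °C 24 h were above all 21 others by at least 0.73, the widest such gap among higher members, while water at 25 °C 24 h lay inside the range of the rest.

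Contig JFC17674 (CUST_10616_PI426483990), next in size, had the opposite layout. It read 0.78, 0.95 and 0.93 with poly(I:C) at 25 °C 24 h, against -0.39, -0.60 and -0.38 with water, a difference of 1.34. At 15 °C 24 h it read 0.91, 0.95 and 0.98 with poly(I:C), against 0.33, 0.66 and 0.41 with water, so the poly(I:C) arrays of both temperatures overlapped. At 3 h the poly(I:C) group averaged 0.33 ± 0.08 at 25 °C and 0.15 ± 0.04 at 15 °C, and the water group read -0.33, 0.19 and 0.14 at 25 °C and averaged 0.30 ± 0.37 at 15 °C (SD, n = 3 each). Here it was water at 25 °C 24 h that lay below the other 21 arrays, by 0.05, the 1 higher member for which that held.

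The member nearest the median of the higher ones, contig JFC04274 (CUST_3119_PI426483990), read -0.53, 0.07 and -0.20 with poly(I:C) at 25 °C 24 h, against -1.83, -0.99 and -1.37 with water. The groups did not overlap, and poly(I:C) again lay above the other 21 arrays, by 0.41. Its water mean at 25 °C 24 h was -1.40 ± 0.42, and the means of the other 6 groups ran between -2.13 and -1.25.

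**Figure D2:**
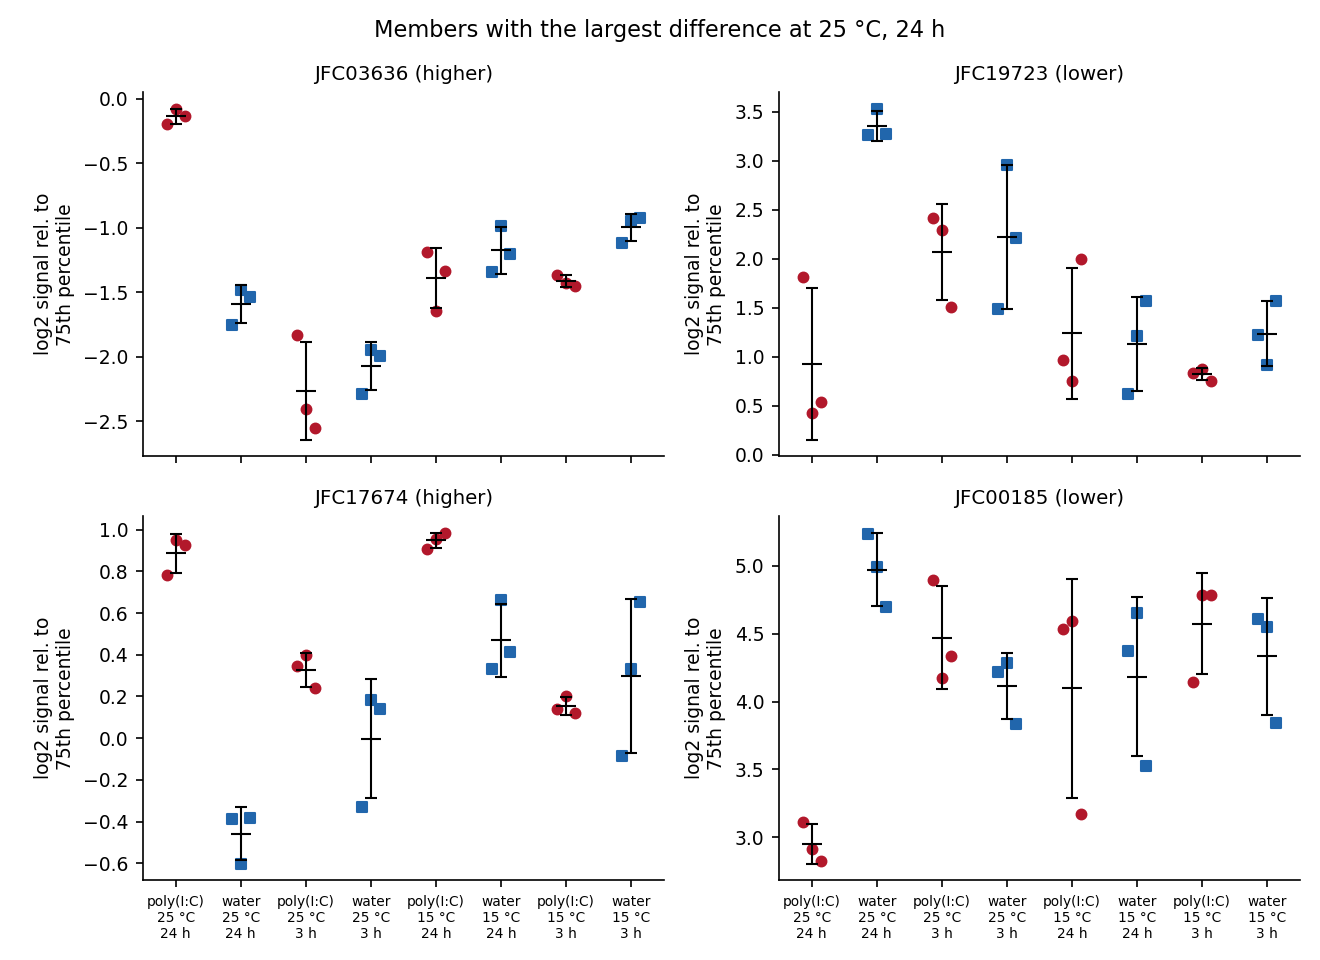
Log2 signal relative to the 75th percentile of each array for the 2 higher members (left) and the 2 lower members (right) with the largest differences among those well above background at 25 °C 24 h. Points are arrays (red circles poly(I:C), blue squares water), and black marks are means ± SD (n = 3). In JFC03636 and JFC00185 the poly(I:C) group at 25 °C 24 h lies apart from all other arrays, and in JFC17674 and JFC19723 the water group does.

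The 57 lower members were not 1 kind of probe. Their differences reached -2.89, with a median of -1.19. Poly(I:C) lay wholly below water for 50, beside 28.1% of all tested probes, which also follows from the choice. By level, 34 were dim (below the 25th percentile of tested contig probes), 18 were bright (above the 75th percentile) and 5 lay between. The dim and the bright ones are given apart, since 17 of the 18 bright probes and 2 of the 34 dim ones were well above background on all 24 arrays.

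Among the 18 bright lower members, 1 rests on a spot that the scanner software marked as an outlier. Contig JFC16242 (CUST_9795_PI426483990, chosen after its values were seen) was at -1.17 in the deposited values. With the marked spot on 1 water array left out, it read 0.80, 0.79 and 0.73 with poly(I:C) at 25 °C 24 h, against 0.47 and 0.56 on the other water arrays, which is a difference of 0.26. Poly(I:C) was then the higher group, so 56 of the 57 were lower, and the bright class had 17 probes.

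These 17 bright probes differed by -2.43 to -1.04, with a median of -1.19. The poly(I:C) group at 25 °C 24 h was -0.84 from the mean of the other 6 groups at the median and the water group was 0.45 from it, so the groups lay on opposite sides of the rest. For 12 of the 17 poly(I:C) was the further, and for 5 it was water, beside 5519 and 7507 of the 13026 tested contig probes. All 3 poly(I:C) arrays lay below the other 21 for 7 of the 17, and all 3 water arrays lay above the other 21 for 2. Over all 57 lower members these counts were 9, beside 0.979% of all tested probes, and 8, beside 2.6%. The choice favoured these counts as well, since it used the same arrays. They are counts of probes and not of contigs, and the 17 include 3 probes of contig JFC02016.

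Contig JFC19723 (CUST_27_PI426500383) had the largest difference of the lower members well above background at 25 °C 24 h. It read 1.82, 0.42 and 0.54 with poly(I:C) there, against 3.26, 3.53 and 3.27 with water, 5.39-fold higher in water (-2.43 log2). The other 6 groups averaged between 0.82 and 2.22, so the water arrays stood above all other arrays, by 0.31. Of the poly(I:C) arrays, 1 lay within the range of the other 21 and the other two lay just below it. The poly(I:C) group spread widely (0.93 ± 0.77, n = 3), and replicate 1, the array on another slide, was the highest of its 3.

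Contig JFC00185 (CUST_10578_PI426483990) showed the other layout. It read 3.11, 2.91 and 2.83 with poly(I:C) at 25 °C 24 h, against 5.24, 4.99 and 4.69 with water, a difference of -2.02. The other 6 groups averaged 4.10 to 4.57, with single arrays as low as 3.17 in poly(I:C) at 15 °C 24 h. The poly(I:C) arrays lay below all 21 others, though by 0.05 at the nearest.

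Contig JFC02742 (CUST_1972_PI426483990) was the lower member in which water stood furthest beyond the other arrays. It read 3.42, 3.86 and 3.52 with poly(I:C) at 25 °C 24 h, against 4.91, 5.07 and 4.67 with water, a gap of 0.79 above every other array. The median lower member, contig JFC04587 (CUST_6938_PI426483990), read 6.46, 6.38 and 6.30 with poly(I:C), against 7.72, 7.64 and 7.34 with water. Its poly(I:C) mean of 6.38 ± 0.08 at 25 °C 24 h was above the 6.23 ± 0.06 of poly(I:C) at 15 °C 24 h (SD, n = 3 each), so poly(I:C) at 25 °C 24 h did not lie below the rest. At 15 °C 24 h its poly(I:C) arrays also lay wholly below water, at 6.16, 6.28 and 6.25 against 6.76, 6.78 and 6.43.

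The only contig with more than 1 member probe was JFC02016, whose 3 probes on the array all met the limits (chosen after their values were seen). Probe JFC02016_3 read 7.32, 7.05 and 7.07 with poly(I:C) at 25 °C 24 h, against 8.11, 8.51 and 7.95 with water, a difference of -1.04. Probes JFC02016_1 and JFC02016_2 differed by -1.33 and -1.36. Contig JFC01866, also chosen after its values were seen, had 3 probes as well, of which 1 was a member at -1.09 and the others stopped short of the limit at -0.92 and -0.64, all in the same direction. Probes of 1 contig share a target, so the 77 probes stand for 75 contigs and the 3 of JFC02016 count as 1 observation. The member of contig JFC02392, chosen after its values were seen, lay close to JFC02016_3. It read 7.25, 7.04 and 7.05 with poly(I:C) at 25 °C 24 h, against 8.05, 8.46 and 7.98 with water. Whether different contigs share a target was not tested, so the 75 may hold fewer separate observations.

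How far members varied together between arrays of the same group differed by class. After each group mean was removed, the correlation between probe pairs over the 24 arrays had a median of 0.48 over the 136 pairs of the 17 bright lower probes, with a range of -0.36 to 0.98. It was 0.42 over the 78 pairs of the 13 higher members between the percentiles, against 0.10 over the 561 pairs of the 34 dim lower ones and 0.02 over all tested contig probes. Of the 136 bright pairs 21 reached 0.8, against 1 of the 78 and 0 of the 561. Among the 21 were the 3 pairs of JFC02016 probes, at 0.84 to 0.93, which share a target. No median was taken without them. The correlations are descriptions, since all probes share the same 24 arrays. Bright probes outside the members were not taken as a set of their own, so class and level cannot be told apart here. Within poly(I:C) at 25 °C 3 h the median deviation of the 17 bright probes from their own means was 0.68 on replicate 1, 0.20 on replicate 2 and -0.50 on replicate 3. The near-zero mean difference at 25 °C 3 h thus averages over arrays that lay far apart.

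The brightest probes as a whole were lower with poly(I:C) at 25 °C 24 h. Of 193 tested contig probes with a level of at least 6, 187 had a difference below 0, with a median of -0.57, and 5 were members. The median of the 193 was -0.45 with median scaling and -0.55 with normexp background correction. Quantile normalisation, which gives every array the same distribution of signals, brought the median of the 193 to -0.02. It brought JFC04587 to -0.59 and JFC02016_3 to -0.50, and the other 3 brightest members to between -0.54 and -0.51. After it, 10 of the 17 bright members still differed by at least 1, among them JFC19723 at -2.41, JFC00185 at -1.97 and JFC02742 at -1.18. None of the 5 brightest members was among the 10. The differences of these 5 ran between -1.07 and -0.92 with median scaling, and between -1.23 and -1.03 with normexp.

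**Figure D3:**
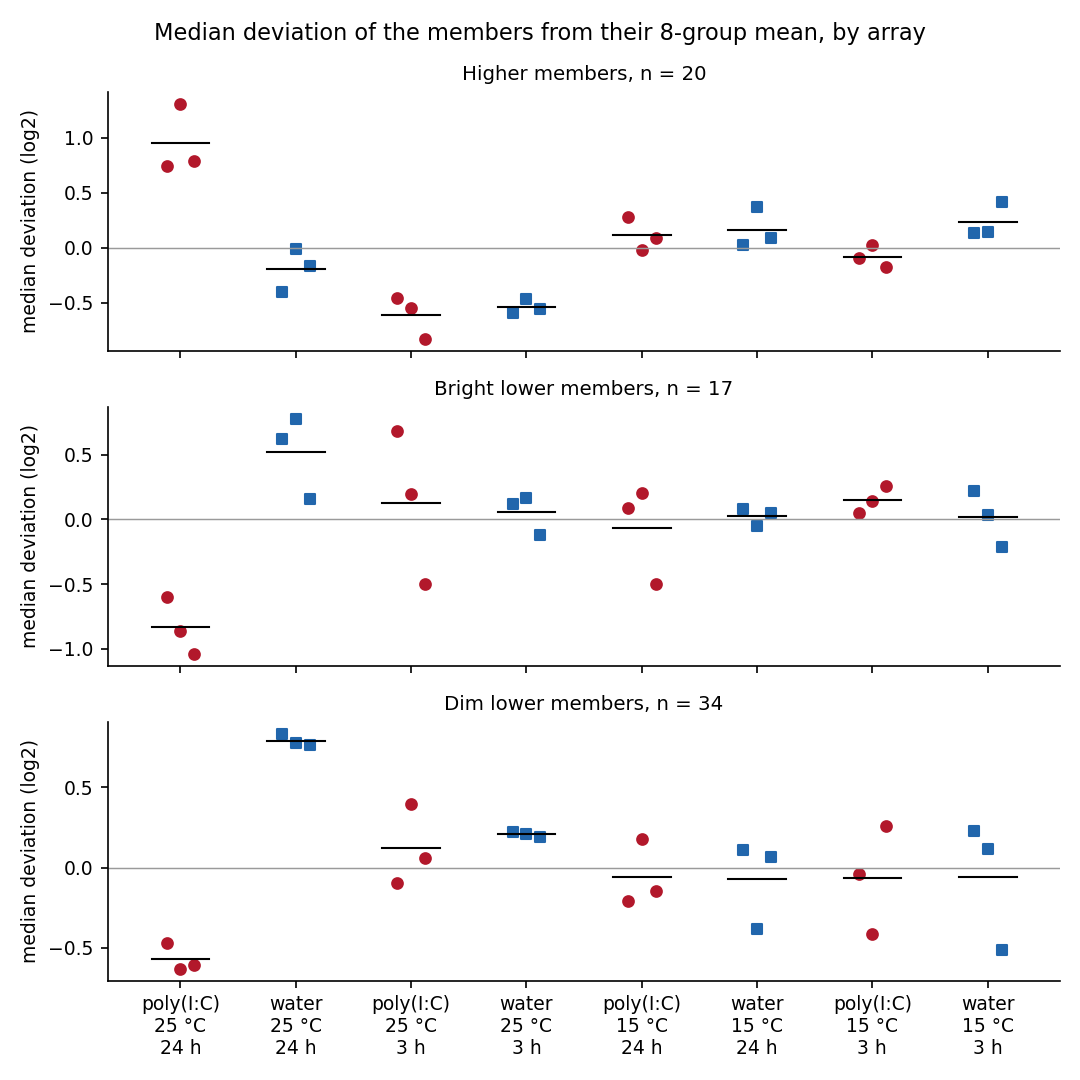
Median over members of the deviation from each member's own mean over the 8 groups (log2), by array, for the 20 higher members (top), the 17 bright lower members (middle) and the 34 dim lower members (bottom). Red circles are poly(I:C) arrays, blue squares water arrays and black lines means of 3. In the higher members poly(I:C) at 25 °C 24 h is highest, whereas in both lower classes poly(I:C) and water at 25 °C 24 h lie on opposite sides.

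The 34 dim lower members reached a difference of -2.89, with a median of -1.24. At the median poly(I:C) at 25 °C 24 h was -0.53 from the mean of the other 6 groups, and water was 0.81 above it. Water was the further of both for 22 of the 34, beside 7507 of the 13026 tested contig probes, also the larger part. On the arrays the median level of these probes was -5.16, -5.12 and -5.41 with poly(I:C) at 25 °C 24 h, against -4.07, -4.19 and -4.11 with water. All 3 poly(I:C) arrays lay below the other 21 for 0 of them, beside 0.979% of all tested probes. All 3 water arrays lay above the other 21 for 6, beside 2.6%. The choice used these arrays, and so did the detection filter for some lower members, which favoured the counts for water.

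Detection bears on this class directly. Of the 57 lower members, 12 were well above background on no poly(I:C) array at 25 °C 24 h, beside 189 of the 13026 tested contig probes. Through water at 25 °C 24 h alone 15 had passed the detection filter, beside 220 of the 13026, and so had to be higher there. For 10 of the 12, all 3 water arrays were well above background, and the water mean was at least 1.15-fold to 2.63-fold higher, with a median bound of 1.86-fold. In the other two, JFC28259 and JFC22213 (chosen after their values were seen), 2 and 1 of the 3 water arrays were, and no bound is given. The bound sets the mean of the water arrays against, on each poly(I:C) array, the higher of the probe's own signal and the lowest signal well above background. The largest difference of all, -2.89 for contig JFC10200 (chosen after its values were seen), became at least 2.63-fold in this way. With all 12 set to the value of this calculation, JFC28259 and JFC22213 included, the median difference of the 34 dim members was -1.11. These bounds compare means and carry no measure of the scatter between arrays. Their direction was largely fixed by the choice and the filter, so they are a description.

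The dim end of the arrays shifted in the same direction. Over the 3257 dim tested contig probes the median difference at 25 °C 24 h was -0.36, against -0.12 between the percentiles and -0.04 in the bright ones. The 5th percentile of signals was -5.95, -5.88 and -6.52 with poly(I:C) at 25 °C 24 h, against -5.23, -5.50 and -5.21 with water. In the groups of the other settings its median over the arrays ran between -6.35 and -5.69. By this median, water at 25 °C 24 h (-5.23) lay above that range, and poly(I:C) at 25 °C 24 h (-5.95) lay inside it. With normexp background correction none of the 34 dim members kept a difference of 1, and their median was -0.40. The offset of 50 by itself shrinks differences at these levels, so this loss cannot tell whether the members changed. The part of this shift in the dim members' differences was not tested.

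Contig JFC00756 (CUST_5824_PI426483990) was the lower member in which poly(I:C) lay furthest below the other arrays, by 1.10. It read -4.63, -5.37 and -5.10 with poly(I:C) at 25 °C 24 h, of which 1 was well above background, against -2.88, -2.68 and -2.92 with water. At 25 °C 3 h it averaged -2.16 ± 0.34 with poly(I:C) and -2.65 ± 0.84 with water. At 15 °C all 4 groups averaged between -1.17 and -0.68. Its level was thus lower at 25 °C than at 15 °C in every group, and lowest of all with poly(I:C) at 24 h.

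**Figure D4:**
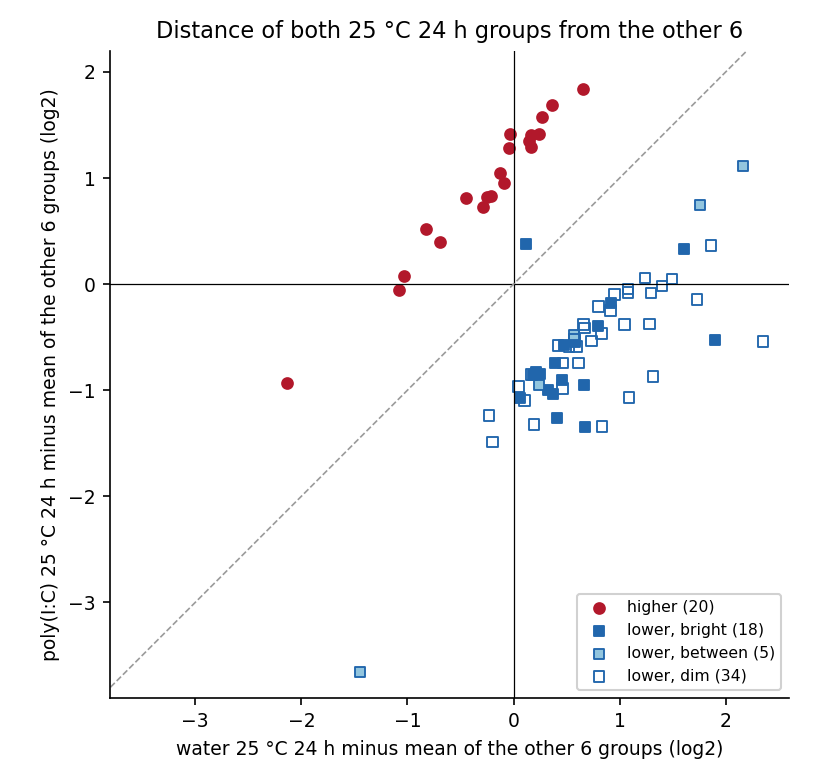
Each member's mean in poly(I:C) at 25 °C 24 h (vertical) and in water at 25 °C 24 h (horizontal), both minus the mean of the other 6 groups (log2). On the dashed line both groups are equal. Higher members (red circles) lie mostly above the origin, lower members (blue squares, filled by level) lie mostly right of and below the origin, and the filled square above the line is JFC16242 without its marked spot.

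A measure that the choice did not use is the temperature difference at 3 h, taken as the mean of poly(I:C) and water at 25 °C minus the same mean at 15 °C. It asks whether members already depended on temperature before their difference from water appeared. Among the 20 higher members 14 fell at 25 °C and 0 rose (also 0 at an unadjusted p under 0.05) by limma's test with Benjamini-Hochberg adjustment over all tested probes, a share of 70%, beside 26.4% of all tested probes called lower and 23.4% called higher. The differences of the 14 ran between -1.54 and -0.49 log2, and the largest limma adjusted p among them was 0.0058. The other 6 had values between -0.26 and 0.82. The 6 arrays at 25 °C lay wholly below the 6 at 15 °C for 11 of the 20, beside 7.21% of all tested probes.

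The largest fall was that of contig JFC06024 (CUST_7310_PI426483990). It read -4.33, -4.18 and -4.17 with poly(I:C) and -4.34, -4.14 and -4.33 with water at 25 °C 3 h, against -2.71, -2.82 and -3.15 with poly(I:C) and -2.66, -2.63 and -2.27 with water at 15 °C 3 h. All 6 arrays at 25 °C were below all 6 at 15 °C, whichever the treatment, and the difference was -1.54 (SE 0.14, limma adjusted p = 5.9e-08). At 24 h and 25 °C the same contig read -2.12, -1.71 and -2.12 with poly(I:C), against -3.79, -2.85 and -3.28 with water, so its poly(I:C) arrays were then above its 15 °C 3 h levels. Contig JFC27811 (CUST_11215_PI426483990) averaged -3.50 ± 0.54 at 25 °C and -2.14 ± 0.39 at 15 °C at 3 h (SD, n = 6 each), a fall of 1.37 (SE 0.33, limma adjusted p = 0.0021). At 25 °C 24 h it read -3.18, -3.11 and -4.18 with poly(I:C), against -4.09, -6.11 and -3.88 with water. These groups overlapped, and replicate 2 of water lay far below the rest. Its poly(I:C) arrays at 15 °C 24 h were higher, at -1.79, -2.53 and -1.97. Neither contig was well above background on all 24 arrays. On the water arrays at 25 °C 3 h the lowest signals well above background were -4.38, -4.67 and -4.50, close to the readings of JFC06024 there.

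The order of temperatures turned round at 24 h in the poly(I:C) fish. Over the 20 higher members the median of 25 °C minus 15 °C was -0.62 with poly(I:C) and -0.75 with water at 3 h, and 0.62 with poly(I:C) and -0.35 with water at 24 h. Among the 14 that fell, poly(I:C) at 25 °C 24 h was above poly(I:C) at 15 °C 24 h for 12, and water at 25 °C was below water at 15 °C for 10. The 24 h values enter the choice of members and are a description.

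**Figure D5:**
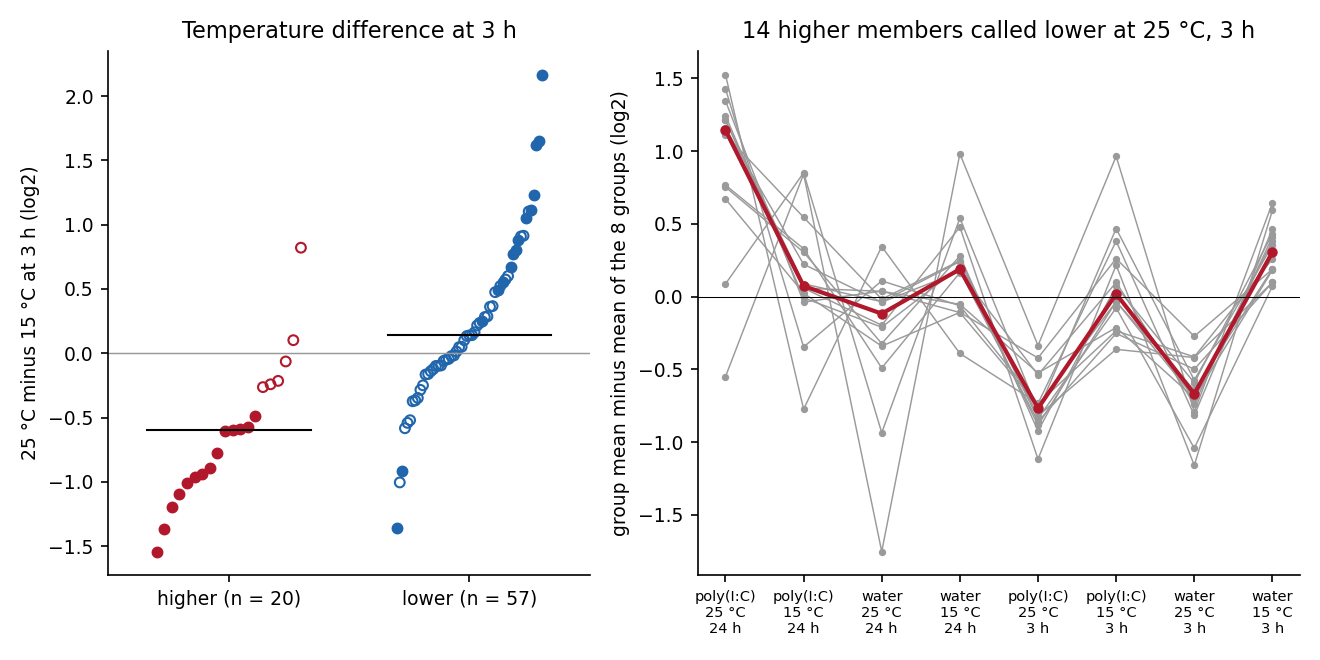
Left, temperature difference at 3 h (mean of poly(I:C) and water at 25 °C minus that at 15 °C, log2) for each higher and lower member, filled where limma's adjusted p was under 0.05, with medians as black lines (-0.60 and 0.14). Right, group means of the 14 higher members called lower at 25 °C 3 h, each minus its mean over the 8 groups (grey), with the median in red, which is low in both 25 °C groups at 3 h and high in poly(I:C) at 25 °C 24 h.

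Slide and temperature moved together in this comparison, since no slide held both temperatures of 1 treatment at 3 h. With slide as a block 9 of the 20 were called, all lower at 25 °C, beside 4.42% of all tested probes, and with normexp background correction 8 of the 20 were, all lower, beside 10.4%. JFC27811 was called in neither, with differences of -1.11 with the block and -0.58 with normexp, and JFC06024 was called with the block (-1.96) and not with normexp (-0.57). The normexp offset by itself shrinks differences at the low levels of these contigs. The median SE over all tested probes was 0.32 with the block, against 0.14 without it.

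Among the 57 lower members the same test called 13 higher at 25 °C, a share close to the 23.4% of all tested probes. It called 2 lower, a share well below the 26.4% of all tested probes. With quantile normalisation 7 were higher and 5 lower. Both directions together made 26.3%, below the background of 49.8%. The lower members also scattered more (median SD within groups 0.41, against 0.22 over all tested contig probes). The part of this scatter in the counts was not tested. The largest rises were those of contigs JFC05211 and JFC00339, both between dim and bright. JFC05211 (CUST_11956_PI426483990) read -2.50, -1.76 and -2.92 with poly(I:C) and -2.19, -1.96 and -2.21 with water at 25 °C 3 h, against -3.88, -4.63 and -4.08 with poly(I:C) and -3.95, -4.96 and -5.03 with water at 15 °C 3 h. All 6 arrays at 25 °C lay above all 6 at 15 °C, with a difference of 2.17 (SE 0.32, limma adjusted p = 2.4e-05). JFC00339 (CUST_9509_PI426483990) averaged -2.21 ± 0.29 at 25 °C and -3.83 ± 0.32 at 15 °C (SD, n = 6 each), a difference of 1.62 (SE 0.28, limma adjusted p = 9.3e-05).

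In both contigs the difference from water at 25 °C 24 h rested on 1 array. JFC05211 read -3.69, -1.18 and -2.24 with poly(I:C) there, against -1.33, -1.36 and -1.27 with water, and JFC00339 read -3.62, -1.74 and -2.06 with poly(I:C), against -1.79, -0.80 and -1.79 with water. The poly(I:C) and water arrays overlapped in both. Without replicate 1 of poly(I:C), the array on another slide, the differences were -0.39 and -0.44. With slide as a block the temperature differences were 1.65 for JFC05211 and 1.09 for JFC00339 and neither was called, and 4 of the 57 lower members were called in all, each higher at 25 °C, beside 5.18% of all tested probes.

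The other measure outside the choice was time at 15 °C, taken as the mean of poly(I:C) and water at 24 h minus that at 3 h. Called were 3 of the 20 higher members (2 higher and 1 lower at 24 h), or 15%, and 5 of the 57 lower members (all lower), or 8.77%. Of all tested probes 11.6% were called higher and 13.3% lower, together 24.8%. The part of the wider scatter of the lower members in their count was not tested here either. The 5 became 3 without any 1 of replicates 2 and 3 of water at 24 h, replicate 3 of water at 3 h, and replicates 1 and 3 of poly(I:C) at 3 h. Contig JFC04421 (CUST_11325_PI426483990) was the 1 member called higher with groups that did not overlap, beside 1.05% of all tested probes. It read 0.65, 0.21 and 0.53 with poly(I:C) and 0.06, 0.26 and 0.16 with water at 24 h, against -0.01, -0.21 and -0.27 with poly(I:C) and 0.04, -0.02 and -0.06 with water at 3 h. The rise was 0.40 (SE 0.09, limma adjusted p = 0.0032), and it was not called with normexp background correction.

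Replicates 2 and 3 of poly(I:C) shared a slide with the 3 water arrays at 25 °C 24 h. The values by slide reuse the arrays that chose the members, so their size and sign were largely fixed by the choice and say nothing on the part of the slide. On that slide alone the median difference was 1.29 for the higher members and -1.27 for the lower ones, and 18 of 20 and 52 of 57 were at least 1 in size in their direction. From replicate 1 alone, on another slide, the medians were 1.13 and -1.12, and 14 of 20 and 36 of 57 reached 1.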

How the data were processed

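Per the file headers, the authors' scanner files hold each spot's linear intensity after background subtraction in Agilent Feature Extraction 10.7.3.1, with no normalisation between arrays, while the submitters' processing notes name version 9.5.3.1. The deposited value table holds the authors' log2 values, whose centring per probe is unknown. Less 1 constant per probe, 100% of them lay within 0.02 log2 of the scanner signals divided by each array's 75th percentile. Members were chosen on that table, with earlier results of these data known, as were the tests and lists.

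Levels were computed from the intensities as log2 values minus the 75th percentile of the array, without control spots and outlier marks. Of 14481 probes, 13377 well above background on 3 arrays of a group were tested with limma 3.58.1 (lmFit, eBayes, R 4.3.3) on 8 group means over 24 arrays (16 residual degrees of freedom, prior 2.65), with Benjamini-Hochberg adjustment and calls under 0.05. The fit was also run on simulated data. The number of arrays limits the precision.

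Named contigs were at most 2 per direction: the largest differences among non-overlapping members detected on all 6 arrays, the member nearest the median, the widest gap of either group from the other 21 arrays, and the largest called non-overlapping changes with temperature or time. Alternatives were median scaling, quantile normalisation, normexp (offset 50, on median signals, as mean signals were not used here), detection filters, blocks, limits of the choice and leaving out arrays. Dates and slide codes were not printed.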

Additional observations from a re-analysis of the deposited data

How the results depend on the processing

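The 20 higher members became 35 with median scaling, 46 with quantile normalisation and 6 with normexp, of which 15, 16 and 1 were among the 20. The 57 lower members became 25 with quantile normalisation and 21 with normexp, of which 14 and 15 were among the 57. Median scaling gave 41 and the slide block 26 higher and 46 lower, of which 32, 9 and 14 were members. Limits of 0.3 and 0.7 in the other settings gave 5 and 54 higher and 19 and 108 lower. Without a detection filter 94 lower probes met the limits, with detection on all 24 arrays 21, and with detection on all 6 arrays at 25 °C 24 h, an alternative added after seeing the data, 24. Leaving out 1 array gave 16 to 36 higher and 46 to 82 lower members. For temperature at 3 h, the 14 called higher members became 8 with normexp and 9 with the slide block, and the 15 called lower members became 4 with normexp, 5 with detection on all 24 arrays and 4 with the slide block. Leaving out 1 array gave 14 to 15 and 10 to 17. For time at 15 °C, the 3 higher members became 1 with the slide block, the 5 lower ones became 3 with median scaling and 3 with only the compared groups, and limma with normexp called 0 of either (3 and 2 at an unadjusted p under 0.05), beside 1230 called of all 13377 probes. Leaving out 1 array gave 2 to 4 and 3 to 5. Replicate numbers did not pair the arrays (correlations of deviations between same-numbered arrays -0.39 to 0.31, 20 of 36 below 0). With the replicate block 14 higher and 18 lower members were called for temperature, and 3 and 4 for time. The cause of these changes was not tested, except where fewer probes or arrays entered.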

Other observations

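Probes outside the contig set also met the numeric limits. Of 351 tested probes whose target is a database sequence, 4 did, all lower with poly(I:C) at 25 °C 24 h, and all 4 were chosen after their values were seen. The targets were not named here. Probe CUST_115_PI426483993 read 7.26, 7.01 and 7.17 with poly(I:C), against 8.06, 8.48 and 8.01 with water, a difference of -1.04. Probe CUST_116_PI426483993 differed by -1.02. After removal of group means these 2 probes and JFC02016_3 correlated pairwise at 0.96 to 0.98 over the 24 arrays, a description with no test. The other 2 probes were dim, well above background on 4 and on 13 of the 24 arrays, and no difference is given for them.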
